A study of Homo sapiens with 24 samples.

Results

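SPNS2 and 7 further genes that make, sense and remove sphingosine-1-phosphate (S1P) were followed across 24 RNA-seq libraries of the human kidney line HK2. The 8 genes are SPNS2, SPHK1, SPHK2, S1PR1, S1PR2, S1PR3, SGPL1 and SGPP1, taken by name from a table of 26475 genes. SPNS2 was chosen by its measured values, since it was among the genes with the largest rise in the VHL mutant clones after dox withdrawal, and the other genes were added as its pathway. Its values in those clones are therefore given as a description and without a test.

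S1P is a signaling lipid made inside the cell when sphingosine kinases phosphorylate sphingosine. It cannot cross the membrane by itself, and SPNS2 is a transporter that carries it out of the cell. Outside, S1P acts on a family of G protein-coupled receptors, while inside the cell it is either broken down for good by the lyase SGPL1 or turned back into sphingosine by the phosphatases SGPP1 and SGPP2. In the kidney, S1P signaling is best known in blood vessels, but tubular epithelial cells also carry kinases and receptors. VHL is the part of a ubiquitin ligase that marks the hypoxia-inducible factors for destruction when oxygen is present, and HK2 is an immortalized cell line derived from human proximal tubule.

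The libraries came from 3 single-cell clones, named WT8, MUT10 and MUT35 (C8, C10 and C35 in the labels), and all 3 carried a VHL transgene that is expressed while doxycycline (dox) is present. According to the study's text, WT8 kept its own VHL gene intact, and VHL was knocked out with CRISPR-Cas9 in MUT10 and MUT35. The study's cell line methods, however, list WT8 too as VHL-edited. Each clone was grown in RPMI with serum and sampled with dox (dox on) and after its removal (dox off), with 4 replicates in each of the 6 groups. The deposited labels list the tissue as lung beside the HK2 name, call the mutant clones with dox wild type, and the series text places WT8 without dox among the VHL knockouts, so the groups are named here by clone and dox state alone. Each genotype is represented by 1 or 2 clones, so a difference between mutant and wild-type cells cannot be told apart from a difference between clones. Nothing in the labels says that replicates were separate cultures, so p-values measure the spread between these samples, which may be technical.

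VHL itself was lower without dox in every clone, with no overlap of the groups. With dox, VHL stood at 220 ± 15 CPM (counts scaled to a common library total) in WT8, 381 ± 15 in MUT10 and 229 ± 31 in MUT35 (mean ± SD, n = 4), and without dox at 30.0 ± 3.1, 30.0 ± 3.1 and 18.2 ± 0.36 CPM. A single row of the table holds VHL, so the transgene and the endogenous gene are not separated. The total count per library ran from 5206663 to 18196003. The 6 renal epithelial markers summed to between 1040 and 2130 CPM, and 5 of them passed the filter on low counts, while PAX2 reached at most 1.3 CPM. The 6 lung markers summed to between 0.861 and 2.62 CPM, and 1 of them passed. AGER reached 1.96 CPM and SFTPB 1.19 CPM, whereas SFTPA1 and SFTPC, which define lung alveolar cells, were at 0 in every library. Of mature proximal tubule markers, 2 of 10 passed the filter on low counts, and the transporter SLC22A6 was at 0 throughout. Of 5 blood markers CD68, which encodes a lysosomal protein, passed, at 112 to 554 CPM with its highest levels in MUT10, and HBB was at 0. The expression of GC-rich against GC-poor transcripts was not even across libraries, and the slope of log2 CPM per 10 points of GC lay between -0.372 and -0.0365 with dox and between -0.0149 and 0.429 without. In 2 MUT10 libraries (dox on replicate 2 and dox off replicate 4) this slope stood near 0, apart from the rest of their groups. Dox state and this GC trend cannot be told apart, so the main withdrawal results are followed by their values with the trend removed. Results for MUT10 were also recomputed without those 2 libraries, a setting chosen after seeing the data. Without them the slopes over all clones lay between -0.372 and -0.119 with dox and between 0.159 and 0.429 without. That fit therefore does not correct for the trend, and it sets the slopes of the dox states further apart.

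SPNS2 was low in all 3 clones with dox and high without dox in the mutant clones. With dox, its level in MUT10 was 1.2, 0.643, 0.969 and 0.745 CPM in replicates 1 to 4, and in MUT35 it was 3.67, 4.74, 5.09 and 4.67 CPM. Without dox it was 17.2, 16.4, 19.0 and 12.4 CPM in MUT10 and 31.0, 27.9, 29.9 and 27.6 CPM in MUT35. No library without dox came near a library with dox in either clone. The log2 fold change was 4.21 (SE 0.18) in MUT10 and 2.66 (SE 0.13) in MUT35, which are 18.5-fold and 6.34-fold. SPNS2 transcripts are rich in GC (63.3%), and with the GC trend removed the log2 fold changes were 3.54 and 2.02. Leaving out the 2 MUT10 libraries with slopes near 0 gave 4.17 in MUT10.

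In WT8, which was not used to pick SPNS2, its level was 3.04, 2.36, 3.71 and 3.01 CPM with dox and 5.15, 6.16, 5.25 and 4.71 CPM without. The groups did not overlap, and every library without dox was higher. The log2 fold change of 0.80 (SE 0.17, 1.74-fold) passed the test (adjusted p = 0.000293, edgeR's quasi-likelihood test with Benjamini-Hochberg adjustment over 13900 genes, as for every adjusted p below). With the GC trend removed it was 0.20 and did not pass (adjusted p = 0.404). The change in the mutant clones exceeded that in WT8 by 2.63 (SE 0.22) on the log2 scale, or 2.59 with the GC trend removed, and this difference was not tested because the mutant values picked the gene.

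The change of SPNS2 was larger in MUT10 than in MUT35. The log2 fold change in MUT10 exceeded that in MUT35 by 1.54 (SE 0.25), and by 1.52 with the GC trend removed. Of the 8 genes, 1 was called in this contrast, against 11.1% of all tested genes, and it was SPNS2 itself, whose values in these libraries chose it, so its difference is a description. With dox, SPNS2 was 5.25-fold lower in MUT10 than in MUT35 (log2 difference -2.39, SE 0.21). Without dox it was 1.80-fold lower (log2 difference -0.85, SE 0.11). In order of its level, SPNS2 was lowest in MUT10 with dox, then WT8 with dox, MUT35 with dox and WT8 without dox, whose neighbouring ranges overlapped, and then MUT10 and MUT35 without dox, each separate from the group below it.

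**Figure D1:**
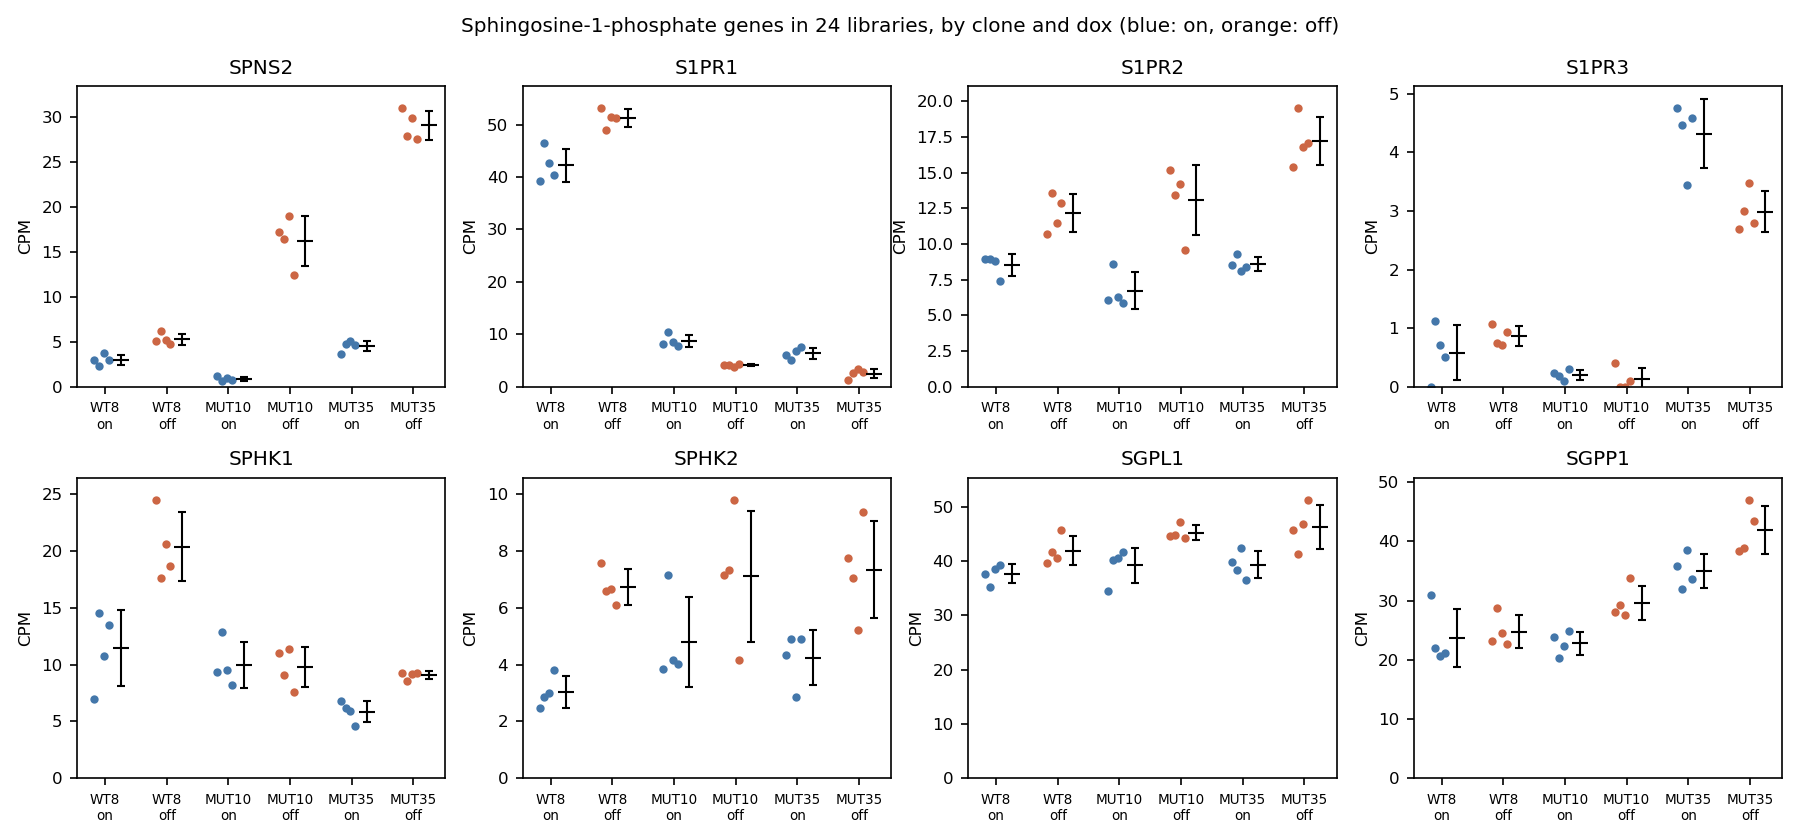
Level of each of the 8 genes in CPM (vertical axes, linear from 0) in the 24 libraries, ordered along the horizontal axes by clone and then dox state. Each point is a library, in replicate order, and black marks give the mean and SD of 4, with bars that would pass below 0 cut there. SPNS2 goes from a mean of 0.888 to 16.2 CPM in MUT10 and from 4.54 to 29.1 CPM in MUT35, and S1PR1 is several times higher in WT8 than in either mutant clone.

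SPNS2 lies on chromosome 17 from 4498881 to 4539035 on the plus strand (hg38, GENCODE release 44; ENSG00000183018.9), between SPNS3 and MYBBP1A. SPNS3, a relative of SPNS2, starts and ends upstream on the same strand, 10673 bases away, and its mean level was at most 0.694 CPM in any group, too low to test. MYBBP1A, which encodes a nucleolar protein, lies on the opposite strand, and its 3′ end overlaps that of SPNS2 by 138 bases. Counts of SPNS2 were fractional in 24 of 24 libraries, so reads were divided with another transcript. MYBBP1A stood at 61.1 and 50.7 CPM in MUT10 with and without dox and at 41.0 and 46.3 CPM in MUT35. Its mean log2 fold change in the mutant clones was -0.05 (adjusted p = 0.551), and in MUT10, where the change of SPNS2 was largest, it fell by 0.27 (adjusted p = 0.0186), or by 0.85 with the GC trend removed. In WT8 it rose with SPNS2, by 0.68 (adjusted p = 9.61e-06), or by 0.15 with the GC trend removed (adjusted p = 0.0361). The part of shared reads in the SPNS2 counts was not tested.

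The genes whose pattern across the 24 libraries was most like that of SPNS2 were FXYD2, IGFBP3, BMP8B, ABCA2, OLFML2A, PLEKHH1, PLXNB3 and AHNAK2. Likeness was measured as the root mean square difference of log2 CPM after centring each gene, over the 10731 genes whose mean count reached 50. The difference was 0.35 for FXYD2, a regulatory subunit of the sodium-potassium pump, and between 0.54 for IGFBP3, a binding protein of insulin-like growth factors, and 0.70 for AHNAK2, against a median of 1.60 over the candidates. FXYD2 stood at 4.89 CPM with dox and 11.1 without in WT8, at 2.11 and 33.5 CPM in MUT10, and at 10.2 and 49.3 CPM in MUT35. Like SPNS2, it was lowest in MUT10 with dox and highest in MUT35 without dox. IGFBP3 shared that order at a higher level, with 24.9 CPM in MUT10 with dox and 897 CPM in MUT35 without dox. Ranked by Pearson correlation, 2 of these 8 genes remained among the first 8.

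**Figure D2:**
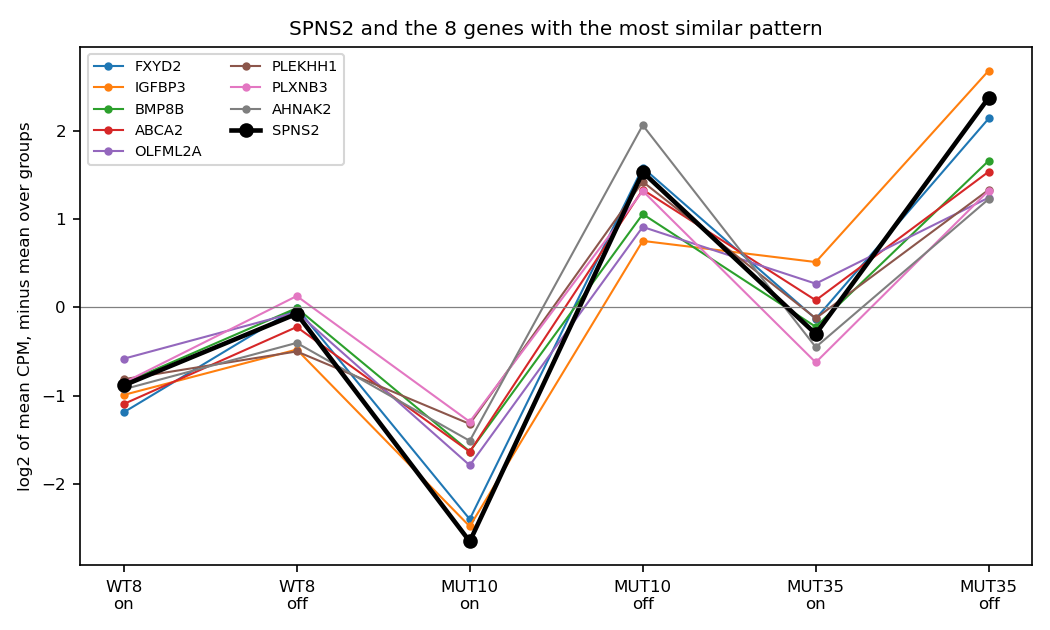
Log2 of the mean CPM of each group minus the gene's mean over the 6 groups (vertical axis) for SPNS2 (black) and the 8 genes with the most similar pattern, by clone and dox state (horizontal axis). All 9 lines are lowest in MUT10 with dox and are higher without dox in both mutant clones, with FXYD2 nearest to SPNS2.

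Among the receptors, S1PR1 was far higher in WT8 than in the mutant clones. S1PR1 couples to Gi and is the main S1P receptor of endothelium and lymphocytes. In WT8 its level was 39.3, 46.5, 42.7 and 40.3 CPM with dox and 53.1, 49.0, 51.4 and 51.3 CPM without. In MUT10 it was 8.14, 10.4, 8.52 and 7.82 CPM with dox and 4.24, 4.13, 3.79 and 4.44 CPM without, and in MUT35 it was 6.04, 5.09, 6.82 and 7.55 CPM with dox and 1.29, 2.63, 3.36 and 2.8 CPM without. The ranges of all 6 groups were separate from each other. Even with dox, S1PR1 was 5.67-fold lower in the mutant clones than in WT8 (log2 difference -2.50, SE 0.096, adjusted p = 2.73e-17).

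Withdrawal moved S1PR1 in opposite directions. It fell by 1.06 (SE 0.15, adjusted p = 1.03e-06) on the log2 scale in MUT10 and by 1.33 (SE 0.18, adjusted p = 4.87e-07) in MUT35. In WT8 it rose by 0.28 (SE 0.099, adjusted p = 0.0183). The call in WT8, more than the size of the rise, depended on single libraries. Without dox on replicate 1 the adjusted p was 0.0525 and without dox on replicate 4 it was 0.0572. The log2 fold change was 0.25 in each of these fits. The difference between the mutant clones and WT8 was -1.48 (SE 0.15, adjusted p = 4.01e-08), and with the GC trend removed it was -1.49. S1PR1 transcripts have a middling GC content (48.9%), and removing the trend left the mean fall in the mutant clones at -1.16 against -1.20, with -1.05 in MUT10, -1.28 in MUT35 and 0.33 in WT8 (adjusted p = 0.00159). The falls in MUT10 and MUT35 differed by 0.27 (95% interval -0.23 to 0.77, adjusted p = 0.549).

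S1PR2, which couples to G12 and G13 and restrains cell migration, moved the other way in the mutant clones. In MUT10 it was at 6.11, 8.63, 6.3 and 5.89 CPM with dox and at 15.2, 13.4, 14.2 and 9.56 CPM without, and in MUT35 at 8.53, 9.28, 8.13 and 8.41 CPM with dox and at 15.4, 19.5, 16.8 and 17.1 CPM without. In WT8 it was at 8.92, 8.95, 8.84 and 7.42 CPM with dox and at 10.7, 13.6, 11.5 and 12.9 CPM without. The groups with and without dox did not overlap in any clone. S1PR2 rose 1.94-fold in MUT10 (log2 fold change 0.95, SE 0.14, adjusted p = 1.03e-06), 1.99-fold in MUT35 (1.00, SE 0.13, adjusted p = 3.05e-07) and 1.43-fold in WT8 (0.51, SE 0.14, adjusted p = 0.00234). With the GC trend removed the log2 fold changes were 0.54, 0.61 and 0.14, and the last did not pass (adjusted p = 0.319). The rise in the mutant clones exceeded that in WT8 by 0.46 (SE 0.17, adjusted p = 0.0457), a call that was lost with DESeq2 (adjusted p = 0.0536), with limma-voom (0.0522) and in 18 of 24 fits that left out a library. S1PR2 exons overlap those of DNMT1, the maintenance DNA methyltransferase, on the same strand, and its counts were fractional in 24 of 24 libraries. DNMT1 fell in MUT10 (log2 fold change -0.22, adjusted p = 0.000323) and did not pass in MUT35 (-0.06, adjusted p = 0.265), and in WT8 it rose along with S1PR2 (0.25, adjusted p = 9.85e-05). After GC correction DNMT1 gave -0.49, -0.30 and 0.00 in the same order. The part of shared reads in the S1PR2 counts was not tested.

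The 250 bases before the start of S1PR1 and S1PR2 are shown because these receptors moved in opposite directions in the mutant clones. They come from RefSeq (GRCh38.p14) and are written 5′ to 3′ on the strand of the gene, for S1PR1 chr1:101236769-101237018 on the plus strand and for S1PR2 chr19:10231332-10231581 on the minus strand. Capitals mark the core of the hypoxia response element, searched as ACGTG and GCGTG on both strands.
S1PR1: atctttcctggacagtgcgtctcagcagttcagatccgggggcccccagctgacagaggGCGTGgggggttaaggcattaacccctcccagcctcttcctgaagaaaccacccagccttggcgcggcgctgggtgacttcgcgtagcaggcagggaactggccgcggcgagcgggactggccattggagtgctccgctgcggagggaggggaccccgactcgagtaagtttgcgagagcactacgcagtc
S1PR2: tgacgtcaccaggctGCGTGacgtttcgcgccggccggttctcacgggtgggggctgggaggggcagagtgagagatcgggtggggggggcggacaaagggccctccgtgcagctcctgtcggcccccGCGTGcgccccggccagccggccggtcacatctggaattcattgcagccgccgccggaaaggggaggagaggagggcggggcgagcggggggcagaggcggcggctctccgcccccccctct
The S1PR1 window held 1 match and the S1PR2 window 2. Among all 35116 windows of this length in the table, 43.2% held at least 1 match and 19.4% at least 2, so neither is unusual, and a match is a description of the letters, not a binding site. Of the 8 genes, 6 had an entry in the table, and SPNS2 and SGPP1 had none. The windows of SGPL1 and of 1 of the 2 starts each of S1PR3 and SPHK2 held 2 matches, and 1 of the 3 SPHK1 windows held 1.

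S1PR3, a receptor that couples to Gi, Gq and G12/13, was highest in MUT35. Its level there was 4.75, 4.47, 3.45 and 4.59 CPM with dox and 2.69, 2.99, 3.47 and 2.8 CPM without. In WT8 it ranged from 0 to 1.12 CPM and in MUT10 from 0 to 0.413 CPM, with at most 4.03 counts in any MUT10 library. The library of WT8 with dox that had 0 counts allows a level of up to 0.569 CPM. The ratio of MUT35 to MUT10 was 20.5 with dox and 24 without, from 210 against 9 counts and 109 against 5 counts. Counts of S1PR3 were fractional in 21 of 24 libraries. S1PR3 passed the filter on low counts through its MUT35 libraries alone. The ratios are therefore a description, and the test between MUT35 and MUT10 is not given as support. The change with withdrawal did not pass in any clone, with log2 fold changes of 0.44 (SE 0.45) in WT8, -0.68 (SE 0.79) in MUT10 and -0.53 (SE 0.27, adjusted p = 0.0902) in MUT35. After GC correction MUT35 gave -0.62 (adjusted p = 0.0376), a call that was lost when the replicate block was added. In a fit of the MUT35 libraries alone, without GC correction, the change passed (-0.53, adjusted p = 0.0129). The mean of the mutant clones passed when MUT10 without dox replicate 1, whose 3.52 counts made up most of that group, was left out (-1.40, adjusted p = 0.017).

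Per kilobase of transcript, these changes gave the clones different receptor mixtures. In WT8, S1PR1 made up 85.0% ± 1.4 (SD, n = 4) of the summed level of the 5 receptors S1PR1 to S1PR5 with dox and 83.2% ± 1.8 without. In MUT10 its share was 57.7% ± 1.7 with dox and 29.4% ± 5.6 without, and in MUT35 36.9% ± 5.0 and 13.6% ± 3.7. S1PR2 took 69.0% ± 5.0 of the sum in MUT10 and 72.3% ± 5.1 in MUT35 without dox, against 15.1% ± 1.8 in WT8. The summed level was 17.9 ± 1.4 CPM per kb in WT8 with dox and 22.2 ± 0.40 without, and between 5.18 and 6.55 CPM per kb in the 4 mutant groups. The change of the mixture with withdrawal in the mutant clones therefore came with little change of the sum, which was 5.44 ± 0.70 with dox and 5.18 ± 0.68 without in MUT10 and 6.21 ± 0.35 and 6.55 ± 0.79 in MUT35. S1PR4, a receptor of lymphocytes, had at most 1 count in any library. S1PR5, known from oligodendrocytes and natural killer cells, was low, with means of 0.919 CPM with dox and 0.147 without in MUT10 and of 1.30 and 0.47 CPM in MUT35. It passed the filter on low counts through mutant libraries with dox, the groups where it was highest, so no test of its change is given. Its count in a library lay between 0 and 18, and in MUT10 between 5.01 and 12.81 with dox and between 0 and 3.0 without. Defining endothelial markers stayed near 0, with a highest level of 0.212 CPM for CDH5 and 0.433 CPM for VWF. The 8 endothelial markers summed to between 2.13 and 4.35 CPM in 5 of the groups and to between 6.03 and 8.49 CPM in MUT35 without dox, mostly from ERG, which reached 7.4 CPM. The part of these markers in the receptor levels was not tested.

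**Figure D3:**
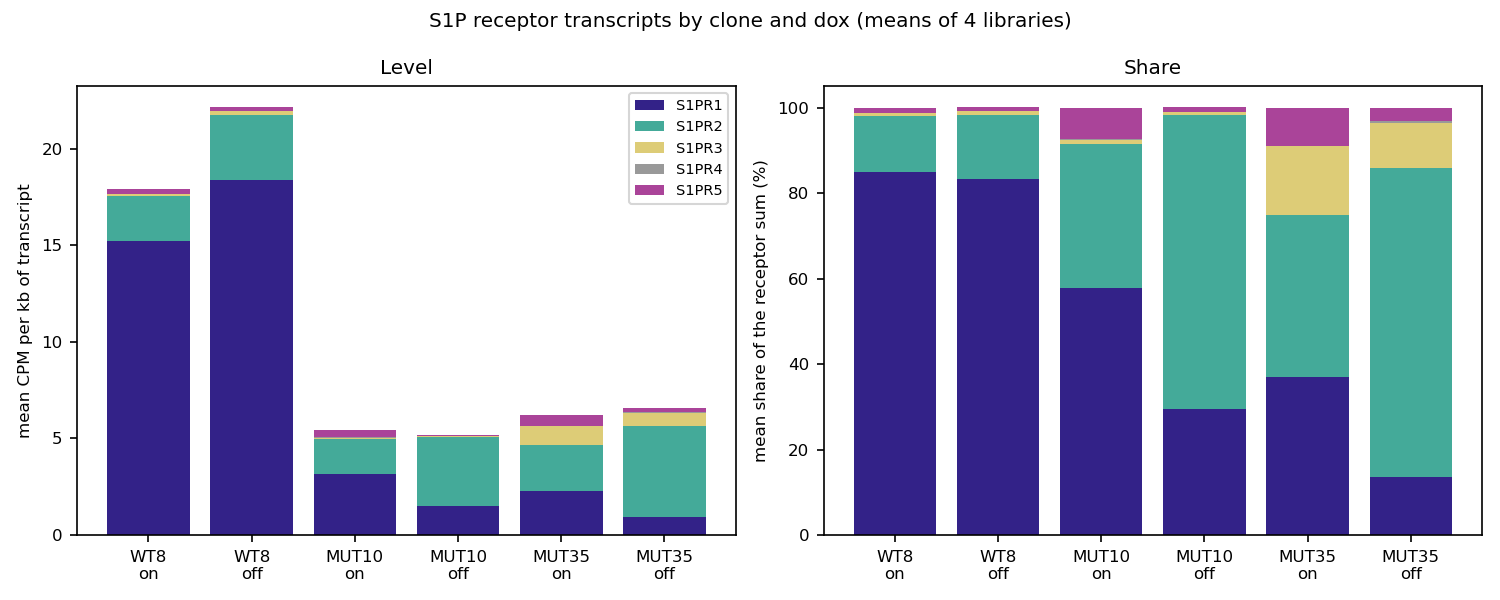
Left, mean level of S1PR1 to S1PR5 in CPM per kilobase of transcript, stacked, by clone and dox state. Right, the mean share of each receptor in their sum in percent, each bar adding to 100% apart from rounding. Bars are means of 4 libraries without error bars and carry no GC correction. S1PR1 takes 85.0% of the sum in WT8 with dox and 13.6% in MUT35 without dox, where S1PR2 takes 72.3%.

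In the mutant clones the kinases that make S1P had smaller log2 fold changes than SPNS2 and S1PR1. In WT8 SPHK2 had the largest of the 8 genes without GC correction. With the GC trend removed the largest in WT8 was that of SGPP1 (0.53, against 0.44 for SPHK2). SPHK1, the mainly cytoplasmic kinase, stood at 7.02, 14.5, 10.8 and 13.5 CPM with dox in WT8 and at 24.5, 17.6, 20.6 and 18.7 CPM without. In MUT35 it was at 6.8, 6.19, 5.91 and 4.59 CPM with dox and at 9.26, 8.6, 9.21 and 9.25 CPM without. In MUT10 the ranges overlapped, from 8.20 to 12.9 CPM with dox and from 7.63 to 11.4 CPM without. SPHK1 rose in WT8 (log2 fold change 0.79, SE 0.16, adjusted p = 0.000167) and in MUT35 (0.64, SE 0.18, adjusted p = 0.00405), and in MUT10 it gave -0.04 (SE 0.17). Its transcripts have the highest GC content of the 8 genes (65.6%), and with the GC trend removed the values were 0.11 in WT8, -0.07 in MUT35 and -0.77 in MUT10, of which only the last passed (adjusted p = 5.18e-06). The direction of the SPHK1 change in the mutant clones therefore turned with this setting, from 0.30 (adjusted p = 0.0345) to -0.42 (adjusted p = 0.000254), and the call without it was lost in 9 of 24 fits that left out a library. The difference between the mutant clones and WT8 was -0.49 (95% interval -0.92 to -0.06, adjusted p = 0.0844), and with the GC trend removed it was -0.54 and passed (adjusted p = 0.00596). With dox, SPHK1 was 1.54-fold lower in the mutant clones than in WT8 (adjusted p = 0.00159), at a GC-corrected log2 difference of -0.59 against -0.62.

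SPHK2, the kinase found largely in the nucleus and at inner membranes, was higher without dox in all 3 clones in the fit without GC correction. Its mean level was 3.03 ± 0.56 CPM with dox and 6.73 ± 0.62 without in WT8, 4.80 ± 1.6 and 7.10 ± 2.3 in MUT10, and 4.24 ± 0.95 and 7.34 ± 1.7 in MUT35 (SD, n = 4). The groups did not overlap in WT8 and MUT35, and they did in MUT10, where dox on replicate 2 (7.16 CPM) and dox off replicate 4 (4.15 CPM) lay on the other group's side. Those are the 2 libraries with GC slopes near 0. The log2 fold change was 1.11 (SE 0.25, adjusted p = 0.000549) in WT8, 0.78 (SE 0.23, adjusted p = 0.00402) in MUT35 and 0.54 (SE 0.23, adjusted p = 0.0368) in MUT10, or 0.96 in MUT10 without those libraries. The call in MUT10 was lost in 6 of 24 fits that left out a library (adjusted p from 0.0577 to 0.173). With the GC trend removed it was 0.44, 0.08 and -0.19, and none passed (adjusted p = 0.0615, 0.715 and 0.338). SPHK2 transcripts have a GC content of 65.3%. The mutant clones differed from WT8 by -0.45 (95% interval -1.08 to 0.19, adjusted p = 0.317).

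SGPL1 and SGPP1 remove S1P inside the cell. SGPL1, the lyase, had the narrowest span of the 8 genes in proportion to its level, with group means between 37.7 and 46.4 CPM. It rose 1.15-fold in MUT10 (log2 fold change 0.20, SE 0.071, adjusted p = 0.0154) and 1.18-fold in MUT35 (0.24, SE 0.071, adjusted p = 0.005), and gave 0.15 (SE 0.073, adjusted p = 0.0722) in WT8. After GC correction SGPL1 rose in all 3 clones, by 0.26 in MUT10 (adjusted p = 0.00121), 0.34 in MUT35 (adjusted p = 7.55e-05) and 0.26 in WT8 (adjusted p = 0.00382). The difference between the mutant clones and WT8 was 0.07 (95% interval -0.12 to 0.25). The call in MUT10 was lost without dox on replicate 1 or replicate 2, with adjusted p from 0.0514 to 0.0797. SGPP1, the phosphatase of the endoplasmic reticulum, stood at 22.8 ± 2.0 CPM with dox and 29.7 ± 2.9 without in MUT10, at 35 ± 2.8 and 42.0 ± 4.1 in MUT35 and at 23.7 ± 4.9 and 24.8 ± 2.7 in WT8. It rose 1.30-fold in MUT10 (adjusted p = 0.00336) and 1.20-fold in MUT35 (adjusted p = 0.0266). The call in MUT35 was lost in 4 of 24 fits that left out a library, and that in MUT10 without the 2 libraries with slopes near 0 (log2 fold change 0.22, adjusted p = 0.0842). SGPP1 transcripts are the poorest in GC of the 8 genes (40.6%), and with the trend removed SGPP1 rose by 0.53 in WT8, 0.79 in MUT10 and 0.70 in MUT35, with adjusted p = 2.3e-05, 3.09e-09 and 7.91e-09. SGPP1 was also higher in MUT35 than in MUT10, 1.53-fold with dox (adjusted p = 2.83e-05) and 1.41-fold without (adjusted p = 0.000301).

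**Figure D4:**
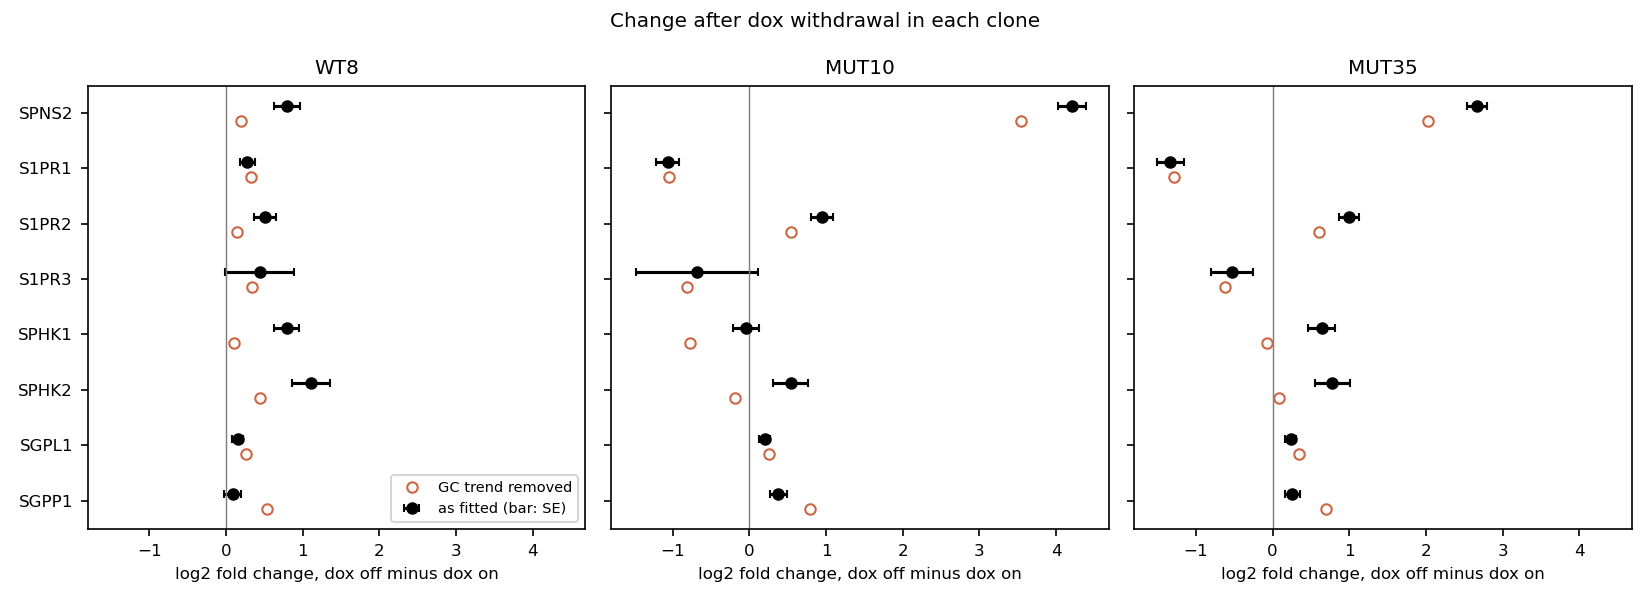
Log2 fold change of the 8 genes after dox withdrawal (horizontal axes, dox off minus dox on, same scale in each panel) in WT8, MUT10 and MUT35. Black points with SE bars are the fitted values and open orange points the values with each library's GC trend removed. S1PR1 lies left of 0 in both mutant clones with either, at -1.06 and -1.05 in MUT10, while SPHK1 crosses 0 in MUT35, from 0.64 to -0.07.

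Counted together, 5 of the 8 genes were called higher and 0 lower in WT8 after withdrawal, where 59.3% of all tested genes were called, 29.5% higher and 29.8% lower. After GC correction 3 of the 8 were called, where 5498 of 13458 genes were called. Of those 3 genes S1PR1 alone was among the first 5. In the mutant clones SPNS2 was not counted. Of the other 7 genes, 4 were higher and 1 lower in MUT10, where 66.1% of all genes were called, 33.8% higher and 32.3% lower. In MUT35 5 were higher and 1 lower, where 63.2% of all genes were called, 32.0% higher and 31.3% lower. In their mean 5 were higher and 1 lower, where 73.6% of all genes were called, 38.1% higher and 35.5% lower. In WT8 and MUT10 the share called in either direction was near that of all genes, and in MUT35 and the mean it was 6 of 7. In each, the share called higher stood above that of all genes, a difference that was not tested. After GC correction MUT10, MUT35 and the mean each gave 3 higher and 2 lower. Of 13458 genes, 8353, 7155 and 9053 were then called. SPHK2 was among the called genes in none of them, and SPHK1 was called lower in MUT10 and the mean. The interaction with WT8 called 2 of the 7, S1PR1 and S1PR2, against 23.5% of all genes. After GC correction it called 3, with SPHK1 added, where 4491 of 13458 genes were called. Between clones with dox, 3 of the 7 genes differed between the mutant clones and WT8 (background 43.2%), namely SPHK1 and S1PR1, which were lower, and SGPP1, which was higher. For SGPP1 the mean stood above WT8 (23.7 CPM) in MUT35 and not in MUT10 (22.8 CPM), and for SPHK1 the MUT10 range overlapped that of WT8, so of these S1PR1 alone was set apart from WT8 in each mutant clone. Between MUT10 and MUT35, SPNS2 and S1PR3 were not counted, since SPNS2 had been chosen on these libraries and S1PR3 passed the filter through MUT35. Of the other 6 genes, 4 differed with dox (background 48.2%) and 3 without (46.6%). With dox, SPHK1 and S1PR1 were higher in MUT10, and S1PR2 and SGPP1 were lower. The genes that differed without dox were S1PR1, which was higher in MUT10, and S1PR2 and SGPP1, which were lower. The S1PR2 difference with dox (-0.35, adjusted p = 0.0386) was lost in 6 of 24 fits that left out a library, the one without dox (-0.39, adjusted p = 0.0108) when MUT10 dox off replicate 4 was left out (-0.27, adjusted p = 0.0529), and the SGPP1 difference between the mutant clones and WT8 (0.28, adjusted p = 0.0232) in 3 of 24.

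The wider sphingolipid pathway was followed through 64 genes in 7 lists, of which 54 could be tested. In the mean of the mutant clones 24 were called higher and 21 lower, against 38.1% and 35.5% of all tested genes, with a median log2 fold change of 0.06 against 0.028 over all tested genes. After GC correction the counts were 22 and 15 of 53 genes, where 9053 of 13458 genes were called, 49.2% of them higher. Both counts of lower genes include S1PR5, which passed the filter through the groups where it was highest. Most genes named from these lists were picked by their adjusted p in the mutant mean, so their p-values in the mutant clones are no independent support. The gene of these lists that stood out was SGPP2, the second S1P phosphatase, which is known to be induced in inflammation. It was at 1.71, 1.12, 1.79 and 1.6 CPM with dox in WT8 and at 1.26, 1.38, 2.08 and 1.63 CPM without. In MUT10 it went from 1.68, 2.3, 1.45 and 1.71 CPM with dox to 21.9, 18.2, 19.8 and 17.0 CPM without, and in MUT35 from 3.13, 2.68, 2.71 and 3.11 CPM to 8.18, 9.43, 9.32 and 8.17 CPM. The groups overlapped in WT8 and were far apart in both mutant clones. SGPP2 rose 10.7-fold in MUT10 (log2 fold change 3.42, SE 0.14, adjusted p = 1.88e-16) and 3.02-fold in MUT35 (1.60, SE 0.14, adjusted p = 9.4e-10), and gave 0.09 (SE 0.22, adjusted p = 0.742) in WT8. The mutant clones exceeded WT8 by 2.41 (SE 0.25, adjusted p = 5e-08), and the GC trend made little difference to the mean of the mutant clones (2.59 against 2.51). As with SPNS2, the log2 fold change was larger in MUT10 than in MUT35, by 1.82 (SE 0.21, adjusted p = 7.19e-07). Without dox, however, SGPP2 was higher in MUT10 and SPNS2 was higher in MUT35. Neither of the 2 SGPP2 windows of 250 bases held the hypoxia response core.

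Among other enzymes that act on extracellular or degraded S1P, PLPP1, a lipid phosphate phosphatase of the cell surface (PPAP2A in the table), rose 1.5-fold in MUT10 (adjusted p = 1.85e-05) and 1.23-fold in MUT35 (adjusted p = 0.0117). After GC correction its log2 fold change was 0.39 in MUT10 (adjusted p = 0.0016), 0.14 in MUT35, which did not pass (adjusted p = 0.271), and -0.58 in WT8. In WT8 it fell by 0.41 on the log2 scale (SE 0.11, adjusted p = 0.0027), and the difference between the mutant clones and WT8 was 0.86 (SE 0.13, adjusted p = 2.21e-05). The same difference for PLPP2, another lipid phosphate phosphatase (listed as PPAP2C), went the other way. For PLPP2 it was -0.50 (SE 0.13, adjusted p = 0.00554), or -0.53 with the GC trend removed (adjusted p = 2.86e-06). ALDH3A2, which oxidizes the aldehyde left by the lyase, fell in the mutant clones (mean log2 fold change -0.62, SE 0.062, adjusted p = 1.77e-09). It fell in WT8 too, by 0.42, and the GC-corrected values were -0.44 and -0.21. In the list of transporters and carriers 2 of 5 tested genes rose and 1 fell in the mutant mean (38.1% and 35.5% of all genes), ABCC1 (0.68, or 0.40 with the GC trend removed), SPNS1 (0.86, or 0.21) and ABCA1 (-0.28, or -0.23). In WT8 the same genes gave 0.31, 0.68 and -0.40, or 0.05, 0.08 and -0.32 with the GC trend removed. MFSD2B, the S1P exporter of red cells and platelets, had 0 counts in every library.

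**Figure D5:**
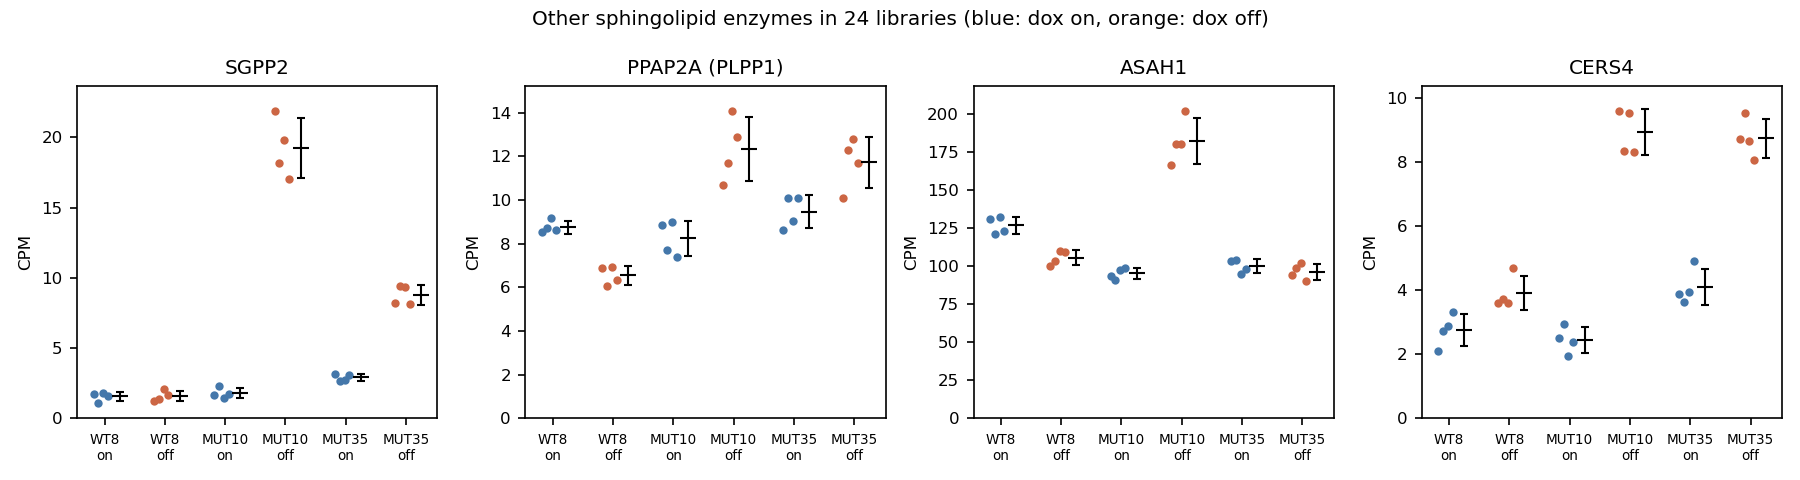
Level in CPM (vertical axes, linear from 0) of SGPP2, PPAP2A, ASAH1 and CERS4 in the 24 libraries, ordered along the horizontal axes by clone and then dox state. Each point is a library, and black marks give the mean and SD of 4. SGPP2 without dox stands at 19.2 CPM in MUT10 and 8.78 CPM in MUT35, and ASAH1 goes from 95.1 to 182 CPM in MUT10 and from 99.9 to 96.2 CPM in MUT35, values that carry no GC correction.

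Upstream of S1P, the ceramidases release sphingosine from ceramide. ASAH1, the lysosomal ceramidase, rose from 95.1 ± 3.6 to 182 ± 15 CPM in MUT10 (log2 fold change 0.93, SE 0.058, adjusted p = 4.66e-13), did not pass in MUT35 (-0.05, SE 0.059, adjusted p = 0.439) and fell in WT8 (-0.26, SE 0.059, adjusted p = 0.000436). After GC correction ASAH1 rose by 1.24 in MUT10 (adjusted p = 8.4e-20) and by 0.29 in MUT35 (adjusted p = 9.87e-06), and in WT8 the sign turned and did not pass (0.09, adjusted p = 0.118). The fold changes of MUT10 and MUT35 differed by 0.99 (SE 0.083, adjusted p = 2.79e-09). ACER2, the Golgi ceramidase, rose at a low level in the mutant mean (0.74, SE 0.17, adjusted p = 0.000436, or 0.87 with the GC trend removed). ACER3 fell (-0.31, adjusted p = 9.53e-05), but rose by 0.15 with the GC trend removed (adjusted p = 0.00436). In WT8 it gave -0.33, or 0.13 with the GC trend removed. In the de novo synthesis of ceramide, 4 of 14 tested genes rose and 6 fell over both mutant clones, again against 38.1% and 35.5% of all genes. This balance turned after GC correction, where 6 of 14 rose and 2 fell. Of all 13458 genes in that fit 9053 were called, 49.2% of them higher. The ceramide synthases CERS1 and CERS4 led the higher ones. CERS4 went from 2.44 ± 0.41 to 8.95 ± 0.72 CPM in MUT10 and from 4.09 ± 0.56 to 8.75 ± 0.61 CPM in MUT35, and the mutant clones exceeded WT8 by 1.01 (SE 0.19, adjusted p = 0.000287). CERS1 rose by 1.72 in the mutant mean (SE 0.17, adjusted p = 2.03e-09), and with the GC trend removed CERS1 gave 1.07 and CERS4 0.88. SPTLC1, a subunit of the enzyme that starts the pathway, was lower (-0.51, or -0.18 with the GC trend removed), and ORMDL1, which restrains that enzyme, gave -0.58 or 0.01. In WT8 SPTLC1 gave -0.46, or -0.09 with the GC trend removed, and ORMDL1 gave -0.45 or 0.12.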

How the data were processed

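RNA-seq measured polyadenylated transcripts of 24 libraries, 4 in each of 6 clone-by-dox groups. Per the labels and the study's methods, the authors mapped reads to hg38 with RSEM and bowtie2 (versions not given in the sources used here) and deposited expected counts per gene, which are estimates that divide shared reads and need not be whole. The library kit differs between the labels (KAPA stranded) and the study's methods (Lexogen). Neither gives the strand setting.

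Counts were rounded, filtered with filterByExpr (13900 of 26475 genes), scaled by TMM and fitted in edgeR 4.0.16 (glmQLFit, glmQLFTest; limma 3.58.1, R 4.3.3) with 1 mean per group over all 24 libraries. Calls were made at an adjusted p under 0.05 over all genes. CPM are per TMM-scaled library, and levels per kilobase use the canonical GENCODE 44 transcript. The biological coefficient of variation was 8.37%. Transcript GC content was known for 96.8% of tested genes, and the GC trend was removed from each library with a spline of 4 degrees of freedom. VHL was compared with an exact 2-sided permutation test, and every clone gave p = 0.029, the smallest that 4 against 4 libraries allow.

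The 8 genes, the gene lists and the tests were chosen with earlier results of these data known. Named were the 8 genes, VHL, up to 2 genes in each direction per list with the smallest adjusted p in the mutant mean (1 of them is not reported here), the 8 genes most like SPNS2 and its neighbours. Names outside this rule (DNMT1, S1PR4, MFSD2B, PLPP2) were added after their values were seen. The fit was tested on simulated counts. Alternatives were a replicate block, scaling by RLE or by total alone, testing all genes or those with 10 counts in every library, DESeq2 1.42.0, limma-voom, the GC correction, only the libraries of a contrast, leaving out each library, and, added after seeing the data, the GC correction with the block and a fit without the 2 MUT10 libraries. Replicates differed by more than counting error in all 36 pairs.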

Additional observations from a re-analysis of the deposited data

Results flagged for a closer look

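Of 48 groups of 4 libraries (8 genes in 6 groups), 5 held a library whose gap to its nearest neighbour exceeded Dixon's 95% critical value, and chance gives about 1 in 20. SPHK1 in MUT35 without dox had a low library at 8.6 CPM, in a group that spanned less than 1 CPM. SPHK2 in MUT10 with dox had a high library at 7.16 CPM, and S1PR2 in the same library (replicate 2) stood at 8.63 CPM, above the rest of its group. That library is 1 of the 2 whose GC slope stood near 0. S1PR2 in WT8 with dox had a low library at 7.42 CPM (replicate 4). SGPP1 in WT8 with dox had a high library at 30.9 CPM (replicate 1), the library with the lowest total count of 5206663 and the lowest GC slope of -0.372.

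A difference of effects between clones that passed its own test was found for S1PR1 and S1PR2. S1PR1 fell in both mutant clones and rose in WT8 (difference -1.48 on the log2 scale, adjusted p = 4.01e-08). S1PR2 rose more in the mutant clones than in WT8 (0.46, adjusted p = 0.0457). The log2 fold change of SPNS2 was larger in MUT10 than in MUT35 by 1.54, a description, since the gene was chosen on these libraries. The part of clone and GC trend in these differences was not tested beyond the values given above.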

How the results depend on the processing

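The count of genes called in WT8 went from 5 to 3 with the GC trend removed, also with the replicate block added. Over all genes the WT8 calls went from 8246 of 13900 to 5498 of 13458 with the GC trend removed. In MUT10 it went from 5 to 3 with library size alone. For the interaction it went from 2 to 1 with RLE factors, without a filter, with DESeq2 and with limma-voom, the gene lost being S1PR2. It went to 3 with the GC trend removed, the gene added being SPHK1. For MUT10 against MUT35 it went from 1 to 0 with a filter of 10 counts in every library, which removes SPNS2 and S1PR3 from the test, and to 2 with the GC trend removed, with or without the block, where SPHK1 was added. Without dox, MUT10 against MUT35 went from 5, a count that includes SPNS2 and S1PR3, to 3 under that filter. Leaving out single libraries gave 3 to 5 in MUT10, 1 to 2 for the interaction and 1 to 2 for MUT10 against MUT35.

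With the GC trend removed the sign turned for SPHK1 in MUT35 (-0.07, or -0.08 with the replicate block) and in the mutant mean (-0.42, or -0.43), for SPHK2 in MUT10 (-0.19, or -0.18) and in the mutant mean (-0.05 in both), and in the mutant mean for ORMDL1 (0.01), ACER3 (0.15), CERK (-0.02) and ROCK2 (0.20), the same with the block. The cause was not tested. Over all genes, the calls for MUT10 against MUT35 went from 1544 to 2695 with the GC trend removed, 2731 with the block as well and 2616 without the 2 MUT10 libraries.

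The deviations of same-numbered libraries with and without dox had a correlation over 0.1 in 5 of 12 pairs (range -0.56 to 0.76). With 4 libraries per group this cannot settle whether the numbers pair the samples. Without GC correction the replicate block changed no call of the 8 genes, and left 5 genes called in WT8 and 2 for the interaction. Added to the GC correction, it lost the call of S1PR3 in MUT35. Depth limits S1PR3 outside MUT35, where libraries held few counts. It limits S1PR5 in MUT35 too, where libraries without dox held 2.0 to 6.0 counts.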

Other observations

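Downstream of the receptors, 8 of 17 genes for G proteins and effectors were higher and 8 lower in the mean of the mutant clones. The background was 38.1% and 35.5% of all tested genes. With the GC trend removed the counts were 8 and 5, where 9053 of 13458 genes were called, 49.2% of them higher. GRK2, the kinase that desensitizes S1PR1 (ADRBK1 in the table), rose by 0.88 on the log2 scale (SE 0.089, adjusted p = 1.86e-09, edgeR's quasi-likelihood test), or by 0.27 with the GC trend removed, and in WT8 by 0.75, or 0.19 without passing (adjusted p = 0.11). ARHGEF11, an exchange factor for RhoA, rose by 0.59 (adjusted p = 5.04e-10) in the mutant clones and by 0.50 in WT8, or by 0.27 and 0.20 with the GC trend removed. RAC1, a GTPase of the leading edge, fell by 0.25 in the mutant clones (adjusted p = 7.44e-08) and by 0.14 in WT8, or by 0.29 and 0.16. ROCK2, a kinase activated by RhoA, fell by 0.44 (adjusted p = 2.81e-08), but rose by 0.20 with the GC trend removed (adjusted p = 0.000449). None of these 4 genes passed the test of a difference between the mutant clones and WT8 (adjusted p = 0.619, 0.554, 0.159 and 0.203).

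Of the genes that use ceramide or turn over sphingomyelin, 5 of 10 rose and 3 fell in the mutant mean (38.1% and 35.5% of all genes). After GC correction 1 of 9 rose and 4 fell, where 9053 of 13458 genes were called, 49.2% of them higher. UGCG, which makes glucosylceramide, fell by 0.54 (adjusted p = 8.49e-08), or by 0.13 with the GC trend removed, and SGMS2, a sphingomyelin synthase, fell by 0.35 (adjusted p = 0.000195), or by 0.12. In WT8 UGCG fell by 0.58 and SGMS2 by 0.47, or by 0.14 and 0.21 with the GC trend removed. Neither passed the test of a difference between the mutant clones and WT8 (adjusted p = 0.869 and 0.583). CERK, the ceramide kinase, rose by 0.32 (adjusted p = 1.42e-05) and gave -0.02 with the GC trend removed.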
